A study of Mus musculus with 8 samples.

Results

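The regions described here are the stretches of liver chromatin that were called open in control mice and not in Alb-D2KO mice, and that lie in exon sequence which is not translated. They were chosen by position alone from the list of lost regions: a member overlaps no window of 200 bp on either side of an annotated transcript start, overlaps an exon by at least 1 bp and overlaps no coding sequence in the GENCODE M21 annotation of mm10. Of 8031 lost regions, 405 met this rule (5.04%, 95% Wilson interval 4.59 to 5.54%). They comprised 136 regions in 3′ UTRs, 24 in 5′ UTRs, 148 in exons of noncoding genes and 97 in exons of noncoding transcripts made from protein-coding genes, and no region met both kinds of UTR. The label fits the positions only in part, since the summit of 87 of the 405 regions lay outside any exon.

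The study used ATAC-seq, in which a transposase cuts accessible DNA, on nuclei of frozen livers of adult C57BL/6 mice (C57BL/6J in the study's methods). There were 4 control libraries, whose titles carry the word cre, and 4 Alb-D2KO libraries. In Alb-D2KO mice the deiodinase gene Dio2 is inactivated by a Cre recombinase driven by the albumin promoter, which the study describes as specific to hepatocytes. The deiodinase encoded by Dio2 makes the active thyroid hormone T3 from T4. The study reports that liver expresses Dio2 only in the days after birth. The question was which chromatin of the adult liver depends on that early activity. Each list of regions was called once on the pooled libraries of a genotype, so no value exists per mouse, no value has a replicate error, and regions are not replicates of mice. The second list, of regions open in Alb-D2KO liver alone, held 250 regions. No lost region overlapped Dio2 itself, and the lists, which hold no signal at regions shared by both genotypes, cannot check its deletion.

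An mRNA carries untranslated sequence before and after its coding sequence, and the 3′ UTR in particular holds sites for microRNAs and for proteins that set the stability and location of the message. Long noncoding RNAs are transcribed like mRNAs, and many but not all are spliced, without a reading frame. Many coding genes also yield transcripts that keep an intron or lack an open reading frame. These are features of RNA, whereas an accessible region is a feature of DNA on both strands: it can mark an enhancer, a start site that the annotation lacks, or a transcribed body, whatever exon lies over it. The assignment of a region to a gene on one strand is therefore one of position.

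Short stretches of sequence are shown at the summits of members with large signal, where the summit need not be exon. For the 10 members with the largest signal among those with a C/EBP, HNF4A, CTCF, NRF1 or DR4 match within 100 bp of the summit, 30 bases around the match nearest to the summit are given, with the match in capitals, 5′ to 3′ on the strand on which it reads as the consensus (mm10 coordinates). C/EBP factors (searched as TTGCNNAA) and HNF4A (searched as CAAAGTCCA) are regulators of hepatocyte genes. Among these 10 members, which were picked for holding a match, the summit was in an exon in Tns4 alone. A C/EBP match was present in 13.6% of members and 14.3% of all lost regions, and an HNF4A match in 2.48% and 2.36%.
Gm14963, C/EBP, chr19:6268265-6268294, minus strand: gggagtgaggcTTGCCTAAggccaaggtac
Eps8l2, C/EBP, chr7:141340682-141340711, minus strand: agccccggtgtTTGCTTAAtgggattcctg
4930408O17Rik, C/EBP, chr12:104858867-104858896, minus strand: cctagtgcctcTTGCCCAAgaggcctggct
Igfbp6, C/EBP, chr15:102149810-102149839, plus strand: ccagcaggaatTTGCCAAAgtggaactccc
Tnk2os, HNF4A, chr16:32666929-32666958, plus strand: gaggaggggaCAAAGTCCAaacaggtcctc
Gm48076, HNF4A, chr12:8453393-8453422, minus strand: caaactgttacCAAAGTCCAttattttgaa
Gm26511, C/EBP, chr9:21721073-21721102, plus strand: acctgaggccaTTGCCCAAccgcagggact
C4a, C/EBP, chr17:34808795-34808824, plus strand: ctgcagagaagTTGCCTAAggccactgata
Tns4, C/EBP, chr11:99066092-99066121, minus strand: ccctgccagccTTGCATAAgccatttgttg
Cmah, C/EBP, chr13:24330453-24330482, minus strand: aggaatgggacTTGCAAAAcatcgacctcc
For the 2 noncoding genes whose members had the largest signal, the 30 bases around the summit are shown on the plus strand without capitals, since no motif chose them; the summit of Neat1 was in an exon and that of Gm32200 was not.
Neat1, summit, chr19:5839525-5839554: gaagctggactcataacattgtccatgtac
Gm32200, summit, chr1:191445659-191445688: agcaggaacggagagcttacatcatcattc
The last sequence spans the start of Inhbe that RefSeq annotates, on the minus strand, with the 15 transcribed bases in capitals; it lies inside the member with the largest signal among those in UTRs.
Inhbe, RefSeq start, chr10:127351834-127351863: ctaggtgagggatccCAAGCAACTGGCTCT

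How densely lost regions fell on each kind of sequence was asked by counting summits per megabase on chromosomes 1 to 19, X and Y, each base being given to the first of promoter window, coding sequence, 3′ UTR, 5′ UTR, noncoding gene exon, noncoding transcript exon, intron and intergenic sequence. The 3′ UTRs carried 150 summits over 31.9 Mb, or 4.70 per Mb (95% Poisson interval 3.98 to 5.51). Exons of noncoding genes carried 5.003 per Mb (4.18 to 5.94), coding sequence 5.38 per Mb (4.61 to 6.25) and exons of noncoding transcripts 7.47 per Mb (6.24 to 8.86). These values stood above the 3.40 per Mb of introns (3.29 to 3.51) and the 1.77 per Mb of intergenic sequence (1.70 to 1.84). In 5′ UTRs, which cover 2.05 Mb outside the promoter windows, the density was 18.1 per Mb (12.7 to 24.9), between those exons and the promoter windows with 32.2 per Mb (30.4 to 34.0). The intervals cover counting error over regions only. The density of all open regions in control liver, against which these values would be read, was not analysed here.

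**Figure D1:**
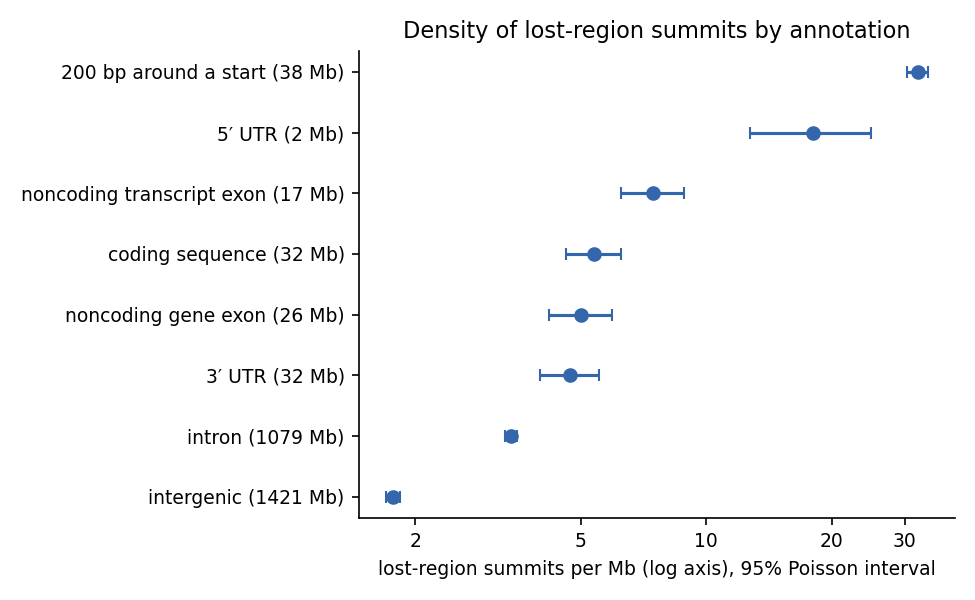
Summits of lost regions per megabase of each kind of sequence (log axis), with 95% Poisson intervals over regions; the megabases counted are given in brackets. The 3′ UTRs, at 4.70 per Mb, and exons of noncoding genes, at 5.003 per Mb, sit between introns, at 3.40 per Mb, and 5′ UTRs, at 18.1 per Mb.

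The members in each class differed in how much of them was exon. In 3′ UTRs, 108 of 136 regions lay wholly in exon sequence (79.4%, Wilson interval 71.9 to 85.4%), as did 74 of 97 in exons of noncoding transcripts (76.3%, 66.9 to 83.6%). In exons of noncoding genes the count was 77 of 148 (52.0%, 44.0 to 59.9%). In 5′ UTRs it was 5 of 24 (20.8%, 9.24 to 40.5%), and the median region there had 35.0% of its bases in exons (quartiles 23.8 to 56.1%). Under 50% of the bases were in exons in 17 of the 24 members in 5′ UTRs, and the summit of 10 of 24 was in an exon, against 117 of 136 in 3′ UTRs. At the edge of the rule, the members nearest to a transcript start were 205, 206 and 209 bp away, and the nearest excluded regions in such exons were at 200, 200 and 198 bp. The 3 smallest exon overlaps of a member were all 2 bp, and the closest intronic or intergenic regions began 1, 2 and 3 bp from an exon.

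**Figure D2:**
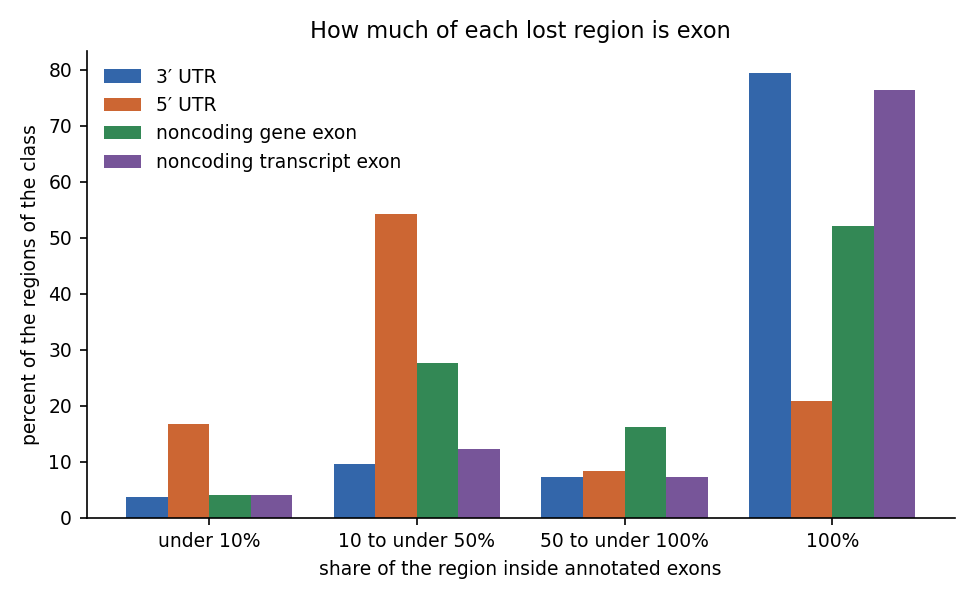
Percent of the lost regions of each class (vertical axis) by the share of the region that lies inside annotated exons (horizontal axis), for 3′ UTRs, 5′ UTRs, noncoding gene exons and exons of noncoding transcripts of coding genes. Of the 3′ UTR regions, 79.4% are exon throughout, against 20.8% of the 5′ UTR regions.

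Signal is given as the AUC that the peak caller wrote, an area under the −log10 p curve, and it grows with the width of the region as well as with its height. It measures how strongly control liver was called open there, not the size of the difference between genotypes. The median AUC was 262 in 3′ UTRs (quartiles 234 to 335), 273 in exons of noncoding genes (232 to 368), 278 in exons of noncoding transcripts (227 to 315) and 326 in 5′ UTRs (238 to 392). Over all lost regions it was 278 (232 to 351), and every region of the list had an AUC of at least 200. Median widths were 300, 344, 311 and 438 bp in the same order, and the median AUC per bp was 0.954, 0.876, 0.930 and 0.780. The median −log10 q at the summit was between 3.04 and 3.16 in the 4 classes. An AUC of 300 or more was reached by 51 of 136 regions in 3′ UTRs (37.5%) and 180 of 413 in coding exons (43.6%), an odds ratio of 0.777 (95% interval 0.510 to 1.18, 2-sided Fisher's exact test over regions, adjusted p = 0.897 over 5 tests). It was reached by 61 of 148 regions in exons of noncoding genes (41.2%), and the odds ratio against 3′ UTRs was 1.17 (0.705 to 1.94, Fisher's exact test, adjusted p = 0.909). Neither difference passed the test, and both intervals include odds from well below to above 1.

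**Figure D3:**
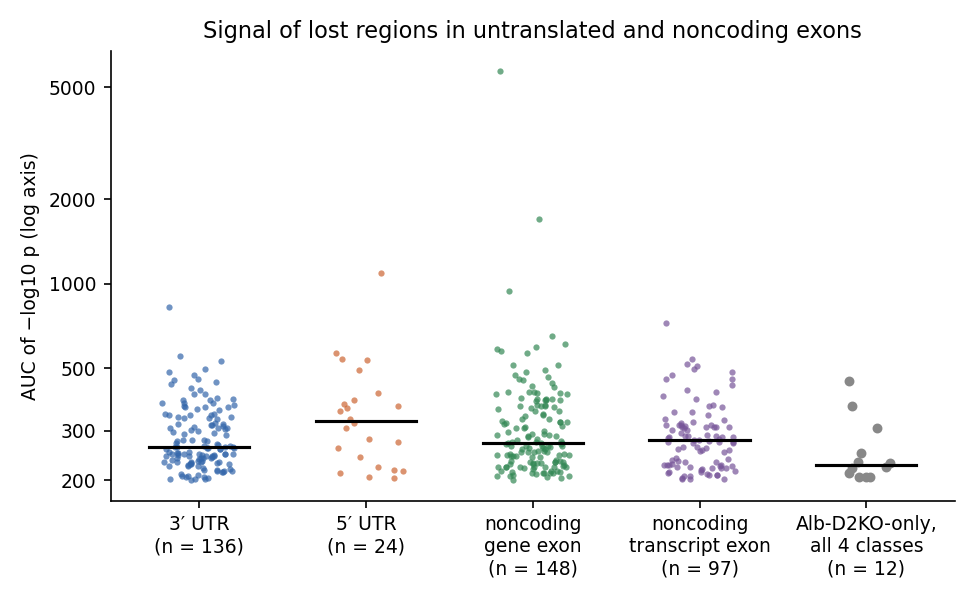
AUC of −log10 p (log axis) of each lost region in the 4 classes and of the 12 regions of the same classes open in Alb-D2KO liver alone; each point is a region and bars mark medians. The bulk of every class lies between 200 and 600, with 1 Neat1 region at 5697 far above the others.

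Among 3′ UTRs, the region with the largest signal lay at the end of Thop1, the gene of a cytosolic peptidase (chr10:81082161-81083375, 1215 bp, AUC 826). Only 32.8% of it was exon. The next was in Gpr182, a receptor of endothelial cells that takes up chemokines (chr10:127749116-127749589, AUC 552), and was exon throughout. Nucb1, which encodes a calcium-binding protein of the Golgi, had 2 regions in its 3′ UTR, with AUCs of 531 and 427, and both lay wholly in exon sequence. Pgpep1, whose product removes pyroglutamate from peptide ends, also had 2, with AUCs of 484 and 307. The others of the 8 largest were in 0610037L13Rik (498), Igfbp6 (474), Arhgdia (458) and C130074G19Rik (455). Arhgdia was the only one of these 8 genes with a lost region at its own promoter as well. By AUC the Thop1 region ranked 25, the Gpr182 region 284 and the C130074G19Rik region 722 of 8031 lost regions.

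The position within the 3′ UTR was spread along its length. Of the 116 regions whose summit lay inside the 3′ UTR of their gene, 25, 30, 36 and 25 fell in the 4 equal parts of its length from the stop codon to the end, with the median at 52.1% of the length (quartiles 30.1 to 72.3%). The end of a transcript fell inside 40 of the 136 regions. The poly(A) signal hexamer AATAAA was searched on the gene's strand within 100 bp of the summit. It was present in 15 of 135 regions (11.1%, Wilson interval 6.85 to 17.5%), and in 6.67% on the opposite strand (3.55 to 12.2%). These intervals overlap and no test was made. The hexamer was present on the plus strand of 6.18% of all lost regions. Whether such a region marks the 3′ UTR of its own gene or something else cannot be read from the list. For 31 of the 136, the whole region was also intron of another protein-coding transcript, as in both Nucb1 regions. For 69 the nearest transcript start belonged to another gene, and in 13 that start was within 1 kb.

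These 13 regions stood near starts of quite different genes. The Igfbp6 region had 4.36% of its bases in the last exon of Igfbp6, a binding protein of insulin-like growth factors. It lay 620 bp from a start of Soat2, which esterifies cholesterol in hepatocytes, and a further lost region followed 400 bp away. The Iffo1 region (AUC 335) lay 711 bp from a start of Gapdh, the Plin3 region (206) 674 bp from Ticam1 and the Elmo2 region (202) 416 bp from Slc35c2. Apart from Igfbp6 and Plin3, which the naming rule gives, these examples were chosen after their values were seen. Farther from a start, the 3′ UTR region of Prdx2 (308), 201 bp wide, reached the annotated end of Junb, an immediate early gene that encodes an AP-1 subunit and converges on Prdx2.

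The 24 members in 5′ UTRs lay close to starts, a median of 761 bp from the nearest one (quartiles 364 to 1278 bp), and 16 of them were within 1 kb. The largest was in Inhbe, which encodes the activin E subunit, a protein secreted by hepatocytes (chr10:127351737-127352586, 850 bp, AUC 1096, rank 9 of 8031). It was exon throughout in GENCODE, 1825 bp from the nearest GENCODE start. The start of Inhbe in RefSeq, at position 127351848 and 2563 bp downstream of the GENCODE start, fell inside the region, so that by RefSeq it is a promoter region. The same check over all 405 members, against 1 RefSeq start per gene, placed 8 within 200 bp of such a start. Besides Inhbe, these were members in Cdkn2c, D930048N14Rik, Bloodlinc, Gm36981, Gm31024, 4931428L18Rik and Tha1, and in all but Inhbe, Cdkn2c and Gm31024 the RefSeq start belonged to a gene of another name.

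The following members in 5′ UTRs by signal were those of Tmie (AUC 569), Eps8l2 (538), Arhgef19 (535), Eppk1 (495) and Cmah (410). Eps8l2 links receptors to actin, Eppk1 binds keratin filaments and Cmah makes the sialic acid Neu5Gc. The regions had 53.1%, 5.48%, 24.0%, 35.3% and 36.7% of their bases in exons, and lay 238 to 2756 bp from a start. Abca1, the exporter of cholesterol to apolipoproteins, had a region of AUC 351 at 15474 bp from the nearest start, the farthest of the 24. Gpat4, which adds the first acyl chain to glycerol phosphate, had an AUC of 366, and Dhcr7, the last enzyme of cholesterol synthesis, an AUC of 204, the lowest of the class. Il4ra, a receptor subunit for interleukin-4 and interleukin-13, was the only gene with a member in each UTR, with AUCs of 282 in the 5′ UTR and 298 in the 3′ UTR.

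GC content was asked because sequence near starts is often rich in CpG. The median was 56.1% in 5′ UTRs (quartiles 49.9 to 62.3%), 51.7% in 3′ UTRs (48.3 to 55.8%), 51.6% in exons of noncoding genes and 51.0% in exons of noncoding transcripts, beside 60.0% at promoters and 51.9% over all lost regions. G or C made up at least 50% of the bases in 18 of 24 regions of 5′ UTRs and 87 of 135 of 3′ UTRs, an odds ratio of 1.66 (0.578 to 5.43, Fisher's exact test, adjusted p = 0.897), which did not pass the test. It passed only in the setting where the summit base decided the class, with an odds ratio of 4.55 and adjusted p = 0.0483 by the same exact test. That setting compares a partly different set, with 37 regions in 5′ UTRs, and the p-value was not adjusted over the settings tried. Repeat-masked sequence made up a median of 7.01% of a member, near the 5.99% of all lost regions.

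The 148 members in exons of noncoding genes lay in 138 genes. Of them 140 were in long noncoding gene types, 7 in pseudogenes and 1 in the immunoglobulin gene Igha. Of the long noncoding types, 60 were lincRNA, 38 were TEC (single-exon loci with weak evidence), 25 antisense, 11 processed transcript, 3 sense intronic and 3 bidirectional promoter lncRNA. Neat1, the scaffold RNA of nuclear paraspeckles, held 6 of them with AUCs of 5697, 1706, 945, 586, 472 and 367. They covered 12831 bp of its exon between 5938 and 16441 bp from its start by summit, and no other gene held more than 3 members. Neat1 was also the only gene with members wider than 1500 bp, at 7182 and 1672 bp.

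The noncoding genes with the next largest members are mostly known only by number. Gm32200 had an AUC of 650 with 2.76% of the region in exon, Gm14963 had 611 with 24.4%, and Gm39465 had 594 with all of it. B230206L02Rik followed with 579 and Bloodlinc, a lncRNA named for its role in red cell formation, with 569. The Gm14963 region lay 3193 bp from the start of Mir192, the gene of a microRNA abundant in liver, outside its hairpin. Of the 148 regions, 62 met a first exon of their gene and 58 lay within 1 kb of a start, against 18 of 136 in 3′ UTRs. For 16 the start within 1 kb belonged to another gene, as for F730035M05Rik (AUC 331) at 471 bp from Pygl, which encodes liver glycogen phosphorylase. For 31 the whole region was also intron of a coding transcript. C4a (AUC 430) has a close copy in C4b, and reads that map to both copies could be removed by the authors' filter on alignment quality. Whether this affected the call there was not tested.

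MicroRNA genes lie inside some of these hosts. The member in AL805899.1 (AUC 359) was 181 bp from the hairpin of Mir31. In coding genes, both members of Aatk (AUCs of 262 and 216) lay 5945 and 6730 bp from Mir338 in the same gene. Over the 405 members, 10 lay in a gene that holds a microRNA or small nucleolar RNA gene on its strand. The same share over all lost regions was not counted, so the 10 cannot be read as many or few.

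The 97 members in exons of noncoding transcripts were in large part intronic for the coding form of the gene: 94 lay wholly in an intron of a protein-coding transcript. Transcripts with a retained intron accounted for 66, processed transcripts for 30 and transcripts subject to nonsense-mediated decay for 3, some regions meeting more than 1 type. When only the transcripts tagged basic in GENCODE were used, none of the 97 stayed in this class. The largest signals were in Slc12a3, the sodium chloride cotransporter (AUC 725), Mafg, a small Maf partner of NRF2 (540), Fbxo21, a ubiquitin ligase subunit (518), Dot1l, which methylates lysine 79 of histone H3 (509), and Cish, an inhibitor of cytokine signalling (497). The Slc12a3 region had another lost region 104 bp away and a lost promoter region in the same gene. Chosen after their values were seen, Dio1, whose product converts T4 to T3 in liver, had a member of AUC 301, 6771 bp from the nearest start, with 36.8% in exon, and Hhex, a homeobox factor of liver development, had one of AUC 273.

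**Figure D4:**
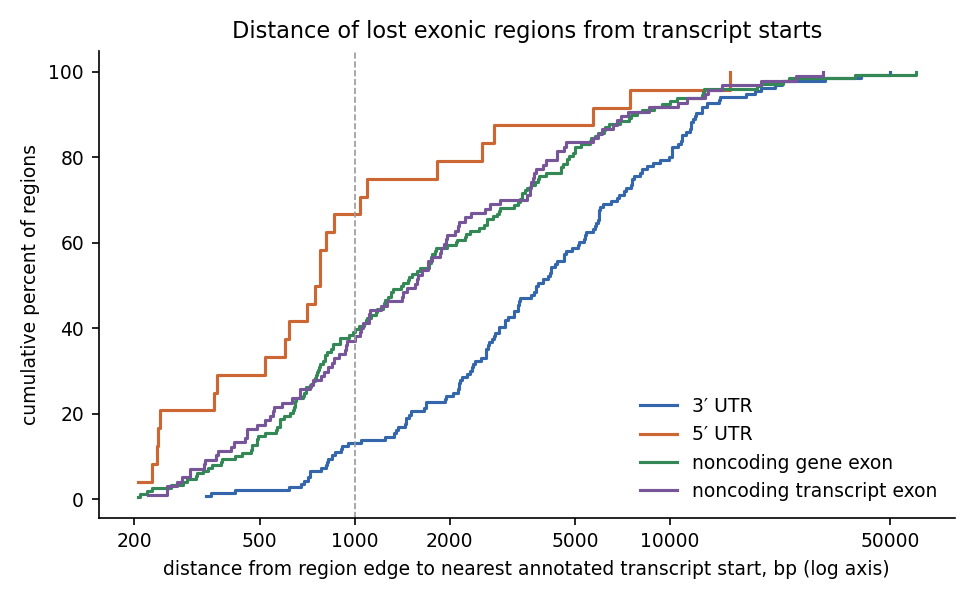
Cumulative percent of the lost regions in each class (vertical axis) by distance from the edge of the region to the nearest annotated transcript start of any gene (log axis); the dashed line marks 1000 bp and regions within 200 bp are excluded by rule. Medians run from 761 bp in 5′ UTRs to 3786 bp in 3′ UTRs, with 1411 bp for noncoding gene exons and 1555 bp for exons of noncoding transcripts.

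The wider context of each gene was examined by asking which other lost regions it held. Of 405 members, 158 were in a gene that overlapped another lost region (39.01%, Wilson interval 34.4 to 43.8%), beside 159 of 413 lost regions in coding exons (38.5%). At promoters the count was 458 of 1560 (29.4%). Promoter regions that overlap no exon were given no gene and counted as having none, so the promoter share is not a like comparison. By class this held for 53 of 136 in 3′ UTRs (38.97%), 11 of 24 in 5′ UTRs (45.8%), 38 of 148 in noncoding genes (25.7%) and 56 of 97 in noncoding transcripts of coding genes (57.7%). A lost region at a promoter of the same gene accompanied 61 members. It accompanied 20 of 136 regions in 3′ UTRs (14.7%) and 59 of 413 in coding exons (14.3%), an odds ratio of 1.03 (0.565 to 1.83, Fisher's exact test, adjusted p = 1). Genes with such a pair included Angptl4, Cyb5r3, Tkfc and Sox13 for 3′ UTRs and Cmah, Entpd5, Cdkn2c, Lmo4 and Tubb5 for 5′ UTRs. Nfib, with 13 lost regions in and around the gene, and Gse1, with 11, had the most among genes with a member.

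The members came from 380 genes, of which 360 had 1 member, 18 had 2, and Neat1 and Elmod3 had 3 or more. The 3 regions of Elmod3, with AUCs of 260 and 247 in its 3′ UTR and 309 at an exon of a processed transcript, were modest, and the last met that exon by 0.671% of its bases. Within 1 kb of another lost region lay 59 of the 405 members (14.6%), beside 9.91% of all lost regions. The nearest Alb-D2KO-only region was more than 5 kb away from every member, but it was that near to only 21 of all 8031 lost regions. The absence is therefore not particular to the members. Chromosome 11 carried the most members, with 41 of its 687 lost regions, chromosome 19 carried 28 of 321, and the X chromosome carried none among 40.

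Whether the class took a different share of the 2 lists was compared next. Of the 250 regions open in Alb-D2KO liver alone, 12 fell in it (4.80%), against 405 of 8031 lost regions (5.04%), an odds ratio of 1.05 (0.585 to 2.09, Fisher's exact test, adjusted p = 1). The difference did not pass the test, and with 12 regions in the smaller list the interval is wide. The 12 included 4 in 3′ UTRs, of Csf2ra (AUC 306), Phip (231), Paqr8 (223) and Slc8a1 (205), and none in a 5′ UTR. Another 5 were in noncoding genes, the pseudogenes Gm13230 (450) and Gm17153 (369), Gm34730 (249), Gm2990 (233) and Gm12923 (213), and 3 in noncoding transcripts of Proser2 (221), Tmem260 (206) and Anpep (205). No gene held both a region of these 12 and a member. Members met an exon of 1.13% of coding genes and 1.04% of long noncoding genes, so 12 regions would rarely share one. The summit of each of the 12 was in an exon.

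Gene lists of liver function comprised 613 annotated genes, of which 20 held a member. Of all 22028 coding genes, 1.13% had an exon that a member met, 0.616% of the 21740 with an annotated 3′ UTR had a member there, and 1.04% of 13374 long noncoding genes had an exon met by a member. Any lost region at all touched 15.8% of coding genes. In the plasma protein list, 6 of 101 genes held a member (5.94%) and 55 held a lost region of any class (54.5%). Besides Inhbe, they were Serpinc1, which encodes antithrombin (AUC 457, retained-intron transcript), Angptl4, an inhibitor of lipoprotein lipase (320, 3′ UTR), Serpinf2, which encodes antiplasmin (249), the complement gene C8a (227) and Itih2 (208), the last 3 in 3′ UTRs. The Serpinf2 region reached its 3′ UTR by 0.889% of its bases.

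Among lipid metabolism genes, 4 of 95 held a member (4.21%), among them Abca1 (AUC 351), Plin3 (206), which coats lipid droplets, and Dhcr7 (204). Of 79 liver transcription factors and nuclear receptors, 3 did (3.80%): Nfib (301), Nr2f2 (285) and Usf2 (205). Of 62 immediate early and stress genes, 3 did (4.84%): Junb (308), Fosl2 (280), both AP-1 subunits, and the survival factor Mcl1 (232). In sugar, amino acid and nitrogen metabolism it was 1 of 74 (1.35%), Ppp1r3b (208), which brings a phosphatase to glycogen. A lost region of some class was held by 44 of these 74 genes (59.5%). That share was 54.4% for the transcription factors and nuclear receptors and 47.4% for lipid metabolism. It was 27.4% for immediate early and stress genes, 28.3% for drug metabolism and 15% for the noncoding RNAs. Of 166 drug metabolism genes, 2 did (1.20%), Gstz1 (341) and Gstt2 (286), and of 40 nuclear or host noncoding RNAs, Neat1 alone did. The counts are descriptions of lists chosen with earlier results known. None of 6 hepatocyte markers and none of 24 markers of Kupffer, endothelial, stellate, biliary and lymphoid cells held a member, while 3 and 2 of them held a lost region of another class.

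Consensus motifs were searched in the 200 bases around each summit on both strands, as descriptions of the letters and not of binding. AGGTCA, the unit that thyroid hormone receptors bind, was found in 28.7% of 404 members (Wilson interval 24.5 to 33.3%), 23.7% of all lost regions (22.8 to 24.7%), 26.8% of intronic, 25.04% of intergenic and 14.6% of promoter regions. DR4, which is AGGTCA repeated after 4 bases with at most 1 mismatch, the classical response element, was found in 1 member, an Elmod3 3′ UTR region, and in 0.499% of all lost regions. C/EBP matches were in 13.6% of members (10.6 to 17.3%) and 14.3% of all, AP-1 (TGANTCA) in 8.42% and 6.93%, FOXA (TGTTTAC) in 5.69% and 4.99%, and HNF4A in 2.48% and 2.36%. SP1 (GGGGCGG) was in 2.97% of members and 7.18% of all, with 3.26% in introns, 3.09% in intergenic sequence and 22.5% at promoters. HNF1, searched as GTTAAT and ATTAAC 1 base apart with at most 1 mismatch, was in 5 members (1.24%, against 0.611%), NRF1 (GCGCNTGCG) in 4 (0.990%, against 1.35%) and ETS (CCGGAAGT) in 3 (0.743%, against 0.736%).

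The CTCF core AGNNGGCGC was counted in each class, and the intervals are wide. It was in 13 of 135 regions of 3′ UTRs (9.63%, 5.71 to 15.8%), 11 of 148 of noncoding genes (7.43%, 4.20 to 12.8%), 1 of 97 of noncoding transcripts (1.03%, 0.182 to 5.61%) and none of 24 of 5′ UTRs (0 to 13.8%). The share was 7.56% in all lost regions, 4.88% in intronic, 8.20% in intergenic, 10.6% in promoter and 14.3% in coding exon regions. The intronic share lies inside the interval of the noncoding transcripts, most of which are intronic for the coding form. HNF4A matches were in 6 of 148 regions of noncoding genes (4.05%, 1.87 to 8.56%) and 1 of 135 of 3′ UTRs (0.741%, 0.131 to 4.08%), with overlapping intervals. No test was made of these shares, and AGGTCA matches are counted within DR4 matches too.

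**Figure D5:**
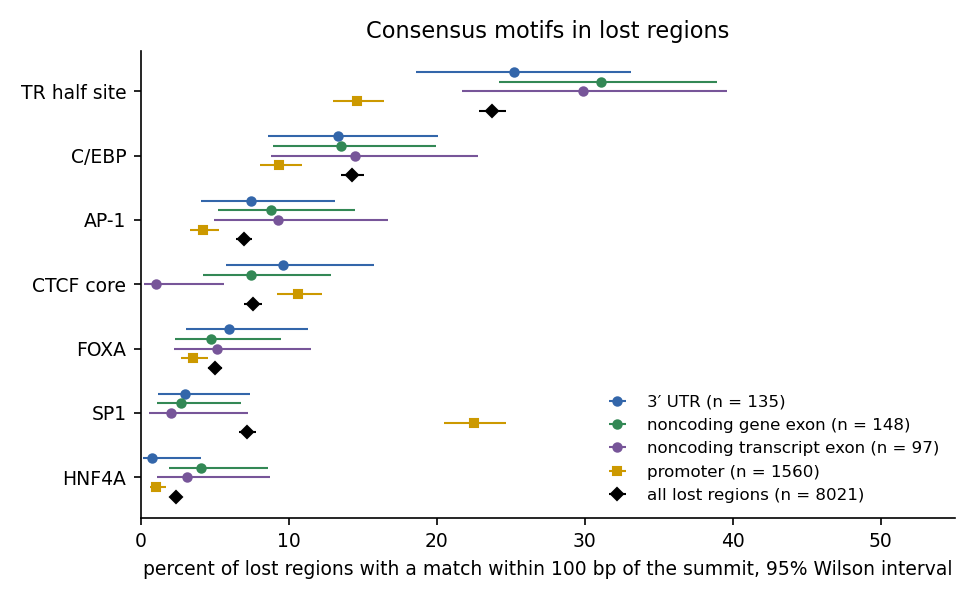
Percent of lost regions with a consensus match within 100 bp of the summit (horizontal axis), for 3′ UTR, noncoding gene and noncoding transcript regions, lost promoter regions and all lost regions, with 95% Wilson intervals over regions. AGGTCA, in the top row, stands at 25.2 to 31.1% in the 3 exon classes and 14.6% at promoters, and SP1 at 22.5% of promoters and below 3% in the exon classes.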

How the data were processed

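ATAC-seq was made from 8 adult liver samples, 4 control and 4 Alb-D2KO. The authors aligned reads to mm10 with BWA 0.7.17, filtered them and called regions with Genrich 0.6 on pooled libraries, and regions of one genotype overlapping a region of the other were removed. The deposited signal is the AUC of −log10 p, the deposited score is AUC per bp times 1000 with a ceiling of 1000 and entered no result, and the deposited −log10 q is that of the summit; the −log10 p column of the authors was not read. Depth is unknown from the lists.

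Regions were classed with GENCODE M21 (per the labels only mm10 is named, and the study's own release was not used here). The order was promoter window, coding sequence, UTR, noncoding gene, noncoding transcript. UTRs came from coding transcripts, and the gene of a region was the one with the most exon overlap. Genome sequence was GRCm38.p6 from RefSeq, the same build as mm10: 500 of 500 promoter sequences checked were identical. A member on an unplaced scaffold has no sequence values. Scripts used Python 3.11.15, pandas 2.3.3, scipy 1.17.1 and pysam 0.24.0, tested on simulated data. Fisher's exact tests were 2-sided over regions, which are not mice, with Benjamini-Hochberg adjustment over 5.

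Named genes were the 8, 6 and 8 members with the largest AUC in 3′ UTRs, 5′ UTRs and noncoding genes, genes with at least 3 members, members of the gene lists (up to 6 per list), members wider than 1500 bp and the Alb-D2KO-only regions of the class. Other genes named were chosen after their values were seen. One member of the lipid list is not reported here. Members and lists were chosen with earlier results of these data known.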

Additional observations from a re-analysis of the deposited data

How the results depend on the processing

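The lists are pooled, so no replicate could be left out. No paired analysis was possible because the regions come from no test across samples. With a promoter window of 1000 bp, 277 members remained, with 8 in 5′ UTRs, 90 in noncoding genes and 61 in noncoding transcripts, and the odds ratio of a lost promoter (3′ UTR against coding exon) turned to 0.982. With the summit deciding the class there were 37 in 5′ UTRs, 34.4% of members had another lost region in their gene, the odds ratio of an AUC of at least 300 (noncoding gene against 3′ UTR) turned to 0.993 and that of GC content rose to 4.55, with adjusted p = 0.0483 by Fisher's exact test. With at least 50% of the region in exons there were 7 in 5′ UTRs, 95.8% of summits were in exons and the odds ratio of the class between the lists turned to 0.954. With basic transcripts, 317 members and 0 in noncoding transcripts were left, and 32.8% of members had another lost region in their gene. With an AUC of at least 300 there were 163 members, of which 51, 14, 61 and 37 were in 3′ UTRs, 5′ UTRs, noncoding genes and noncoding transcripts. Of these, 72.4% had the summit in an exon and 29.4% had another lost region in the gene, and the odds ratios of the class between the lists and of a lost promoter turned to 0.454 and 0.742, while both AUC comparisons could not be fitted, nor the summit share where the summit decided. Every odds ratio that turned had an adjusted p above 0.05 both ways, and the causes were not tested. Adding RefSeq starts, chosen after seeing the data, left 397 members. The genes of the lists numbered 20, and 23 by gene body. Of the motif shares, 12 left the 95% interval of the 200 bp window under a window of 100 bp or the whole region and 10 did not, and the AGGTCA share ran from 16.1 to 39.4%.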
